A study of Equus caballus with 18 samples.

Results

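The proteasome genes of equine gluteal muscle were followed in horses given oral clenbuterol, a β2-adrenergic agonist, under 2 dosing regimens. A gene was taken as a member when an array probeset carried its symbol alone and the symbol was PSM followed by A, B, C, D, E, F or G and a number. This gave 45 genes of the 16661 genes that had a probeset of their own on the equine array. By name, 15 were counted to the 20S core (PSMA and PSMB) and 19 to the 19S regulatory particle (PSMC and PSMD). The 19 include the assembly chaperones PSMD5, PSMD9 and PSMD10. The others were the 3 immunoproteasome subunits PSMB8, PSMB9 and PSMB10, and 8 activators, inhibitors and chaperones (PSME, PSMF and PSMG). For PSMA1, which had more than one probeset, the one with the highest mean was used. PSMB2, PSMD4 and PSME3 were named on the array only together with another gene and are described among the other observations.

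The animals were exercised Thoroughbreds, and superficial gluteal muscle was sampled by needle biopsy. The 5 horses called L1 to L5 here received the low dose of 0.8 µg/kg by mouth BID for 30 days and had an array at baseline and on day 14. A further 4 horses, called E1 to E4, received the escalating dosing regimen, which went through 0.8, 1.6 and 2.4 µg/kg BID for 3 days each before a final 21 days at 3.2 µg/kg BID, and had an array at baseline and on day 28. The samples hold no untreated horses followed over the same period, and each horse was its own control, so the change with drug cannot be told apart from a change over time or with the second biopsy. Dose and sampling day differed together between the regimens. All levels are log2 values from RMA, a method that corrects and normalizes probe intensities, and a change of 1 is a change of 2-fold.

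The proteasome degrades proteins that carry ubiquitin chains, and in skeletal muscle it is a main route for the breakdown of myofibrillar proteins. Its 20S core is a barrel of α rings, made of PSMA subunits, around β rings, made of PSMB subunits, of which PSMB5, PSMB6 and PSMB7 carry the proteolytic sites. The 19S particle caps the barrel, with PSMC ATPases that unfold the substrate and PSMD subunits that bind ubiquitin and remove it. In cells exposed to interferon and in many immune cells, PSMB8, PSMB9 and PSMB10 take the places of PSMB5, PSMB6 and PSMB7 to form the immunoproteasome.

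The arrays had features that touch every result on these genes. The array medians were 2.42 to 2.74 in the low dose horses and 4.06 to 4.50 in the escalating dose horses, so levels were not compared between the cohorts. In the escalating dose horses the array medians were 4.06 to 4.22 at baseline and 4.45 to 4.50 on day 28, and the SD over all probesets was 1.71 to 1.80 at baseline and 1.49 to 1.53 on day 28. In the low dose cohort L4 and L5 stood apart at both times. The mean level of the 45 genes at baseline was 4.62, 4.85 and 4.85 in L1 to L3, 3.70 in L4 and 3.40 in L5, and on day 14 it was 5.03, 5.09 and 5.01 in L1 to L3, 3.81 in L4 and 3.26 in L5. The SD over all probesets was 1.31 to 1.41 on the baseline arrays of L4 and L5 and the day 14 array of L4 and 1.20 on the day 14 array of L5, against 1.67 to 1.75 on the arrays of L1 to L3. All 11 measured skeletal muscle markers lay above the array median in each of the 4 groups. The mean level of the 8 measured skin epithelium markers was 4.75, 4.66 and 4.86 at baseline in L1 to L3. On day 14 it was 2.14, 2.37 and 2.15 in these horses. In L4 and L5 it was 2.96 and 2.86 at baseline and 2.88 and 2.85 on day 14. The part of this fall in the low dose changes was not tested.

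**Figure D1:**
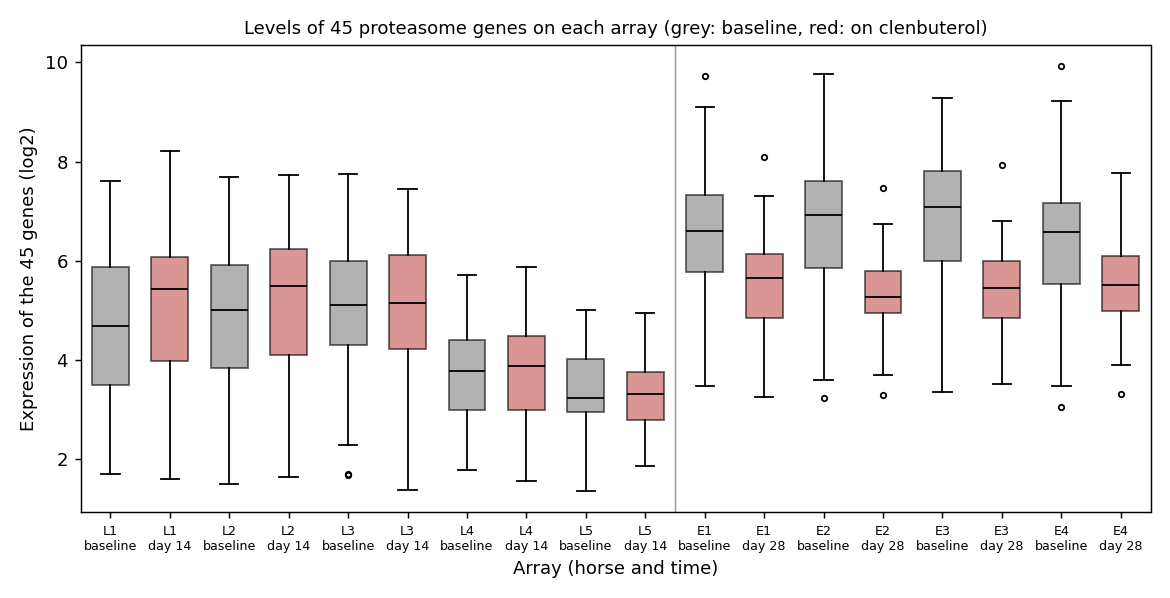
Box plots of the log2 levels of the 45 proteasome genes on each of the 18 arrays, grey at baseline and red on clenbuterol, with the median as a line, boxes from the lower to the upper quartile of the genes, whiskers to the farthest gene within 1.5 box lengths and circles beyond. On the arrays of E1 to E4 the boxes were lower and shorter on day 28 than at baseline, and among the low dose horses the boxes of L4 and L5 were low at both times.

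At the escalating dose, most proteasome genes were lower on day 28 than at baseline. Of the 45 genes, 32 were down-regulated and 1, PSMA8, was up-regulated at an adjusted p under 0.05 (limma with horse as a block, Benjamini-Hochberg over all probesets), and 12 did not pass. Over all 30559 probesets 20.2% were called lower and 24.5% higher. Over all single-symbol genes, the set the 45 genes belong to, 28.4% were called lower and 21.9% higher. The median change of the 45 genes was -1.27, with -0.95 in E1, -1.57 in E2, -1.52 in E3 and -0.95 in E4, against -0.03 over all single-symbol genes and 0.08 over all probesets. The number of the 45 genes that were lower on day 28 was 37 in E1, 41 in E2, 42 in E3 and 39 in E4. In 32 genes all day 28 values lay below all baseline values, which held for 19.7% of all probesets and for 4740 of the 16661 single-symbol genes. The fall exceeded 2-fold in 28 of the 32 genes. The levels of the 45 genes also drew together, with an SD over genes of 1.39 to 1.49 on the baseline arrays and 0.79 to 1.02 on the day 28 arrays. Fewer cells of a type and less RNA per cell cannot be told apart in such biopsies.

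**Figure D2:**
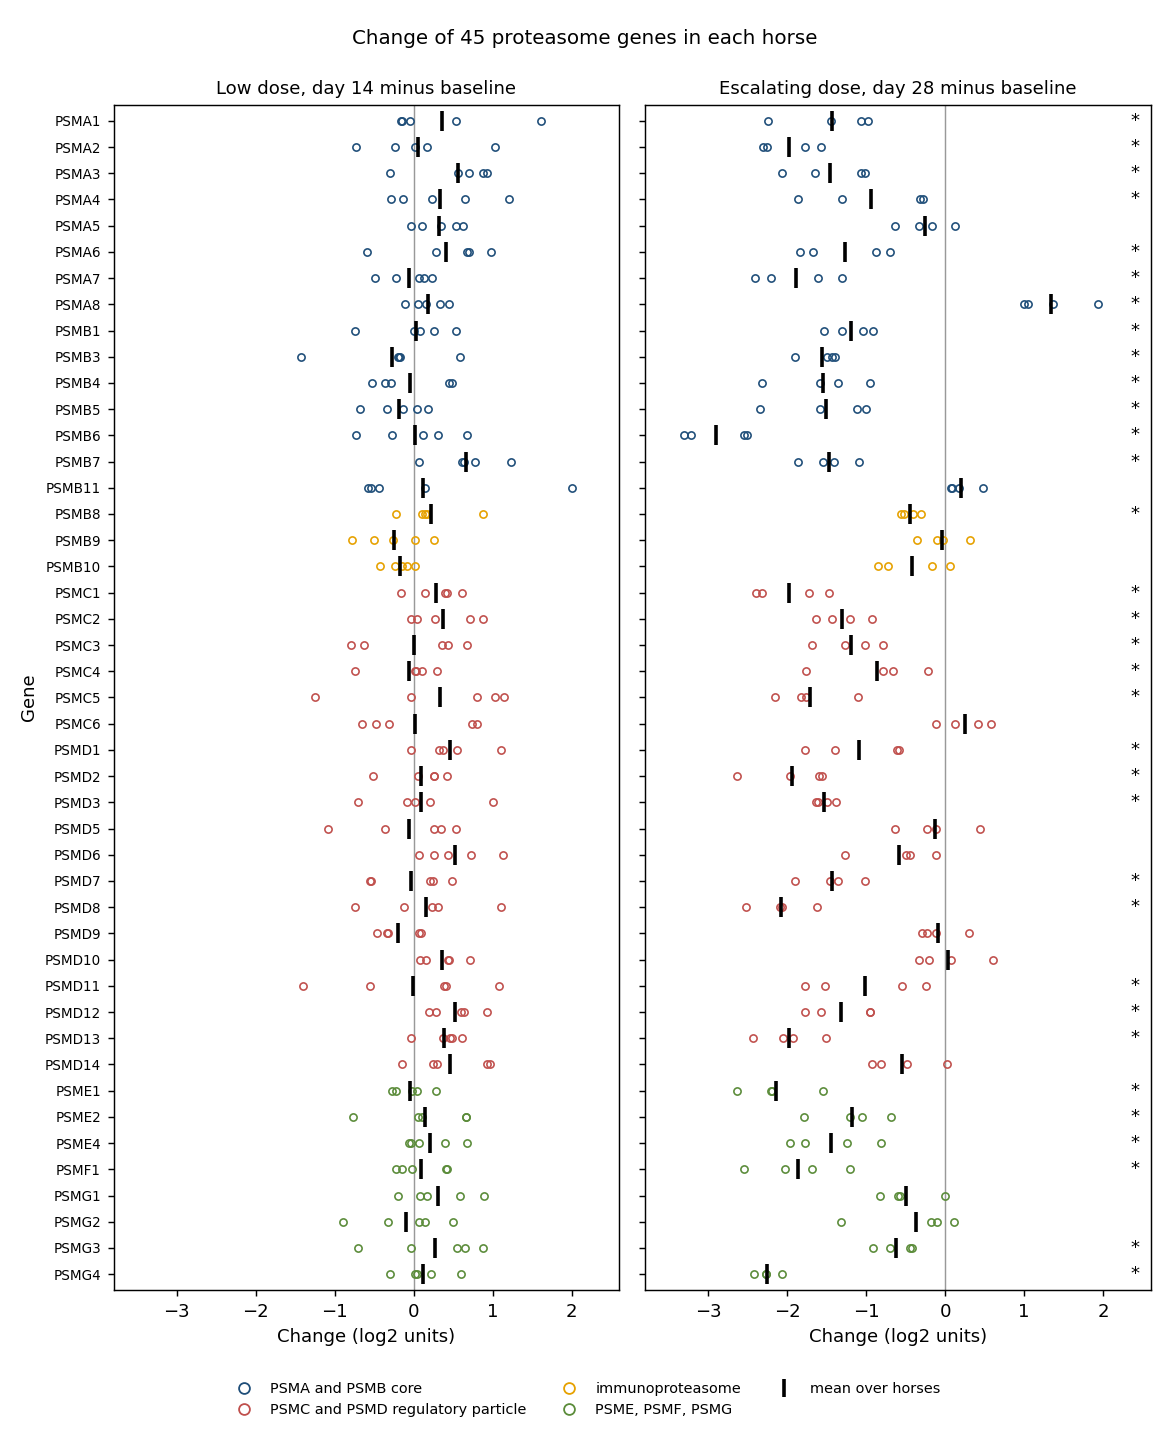
Change in each horse (open circles) and mean change (black bar) of each of the 45 genes in log2 units, low dose on the left (5 horses) and escalating dose on the right (4 horses), coloured by class, with an asterisk for an adjusted p under 0.05. At the escalating dose most genes lie left of 0 in all 4 horses, PSMA8 lies right of 0 and PSMB9, PSMD9 and PSMD10 lie around it, while at the low dose no gene has an asterisk.

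The proteolytic core showed the deepest single change. PSMB6, the β1 subunit that cleaves after acidic residues, was at 9.73, 9.76, 9.21 and 9.93 at baseline in E1 to E4 and at 7.22, 6.54, 6.66 and 6.62 on day 28. Every horse fell by more than 2.5 log2 units, and the mean change was -2.90 (SE 0.191, adjusted p = 8.65e-05 by limma), a fall of 7.45-fold. PSMB5, the β5 subunit with chymotrypsin-like activity, was at 7.61, 8.22, 8.05 and 7.55 at baseline and at 6.61, 5.88, 6.47 and 6.44 on day 28. It fell in all 4 horses, with a change of -1.51 (SE 0.239, adjusted p = 0.00204 by limma). This call was lost after cyclic loess, a rescaling that removes a trend of the difference between arrays with signal, where the change of PSMB5 was -0.36 (adjusted p = 0.204 by limma), and it was lost with the methods' paired test of each probeset. PSMB7, the β2 subunit with trypsin-like activity, was at 6.59, 6.92, 6.77 and 6.51 at baseline and at 5.05, 5.06, 5.36 and 5.42 on day 28, a change of -1.47 (SE 0.167, adjusted p = 0.000488 by limma). The groups did not overlap for any of the 3 proteolytic subunits.

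The other β subunits, PSMB1, PSMB3 and PSMB4, which have no proteolytic site of the mature core, had changes of -1.20, -1.55 and -1.55, and all 6 constitutive PSMB genes were called lower with a median of -1.53. After cyclic loess 4 of the 6 were called lower, without PSMB4 and PSMB5, and the median was -0.61. Over all probesets 18.5% were called lower after cyclic loess, and of the 16661 single-symbol genes 4158. Of the 7 α subunits other than PSMA8, which form the outer rings and the gate of the barrel, 6 were called lower, with a median over the 7 genes of -1.43. PSMA2 fell by the most among them, from 6.79, 7.08, 7.22 and 6.91 at baseline to 5.22, 4.83, 5.44 and 4.61 on day 28, a change of -1.97 (SE 0.176, adjusted p = 0.000202 by limma). The changes of PSMA7, PSMA3, PSMA1 and PSMA6, all called, were -1.89, -1.45, -1.43 and -1.27. After cyclic loess PSMA7 and PSMA2 kept the call, while PSMA3, PSMA1 and PSMA6 lost it, with -0.27, -0.56 and -0.52. PSMA1 also lost it when the mean of its probesets was used, with -0.40. PSMA4 lay just inside the threshold, with a change of -0.94 and an adjusted p of 0.0326 by limma, and its change was 0.0089 after cyclic loess. Its call was also lost after quantile normalization and without E2 or E3. PSMA5 did not pass, with a change of -0.25 and 3 of 4 horses lower.

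PSMA8 is the α subunit that takes the place of PSMA7 in the proteasome of male germ cells, as known from mouse. It was at 3.69, 3.22, 3.44 and 3.04 at baseline and at 5.06, 4.22, 4.49 and 4.98 on day 28. It was higher in 4 of 4 horses with no overlap, a change of 1.34 (SE 0.193, adjusted p = 0.00134 by limma). Its baseline values lay below the median of each array, which was 4.06 to 4.22. PSMB11, the β5 subunit of the proteasome of thymic cortical epithelium, also had a baseline mean below those medians, at 3.47, and its change of 0.20 did not pass. Without these 2 tissue-restricted genes, 12 of the 13 core genes were called lower, with a median of -1.48. After cyclic loess 6 of the 13 were, with a median of -0.56, against 18.5% of all probesets.

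In the regulatory particle, 13 of 19 genes were called lower, none higher, and the median change was -1.19. After cyclic loess 8 were called lower and 1, PSMC6, higher, with a median of -0.43. Over all probesets 18.5% were then called lower and 22.1% higher. Of the 6 PSMC ATPases, 5 were called lower. PSMC1 was at 6.97, 7.39, 7.61 and 6.91 at baseline and at 5.25, 5.07, 5.22 and 5.44 on day 28, a change of -1.97 (SE 0.198, adjusted p = 0.000306 by limma) with no overlap of the groups. The changes of PSMC5, PSMC2, PSMC3 and PSMC4 were -1.71, -1.30, -1.19 and -0.86, and PSMC2 and PSMC4 lost the call after cyclic loess, with -0.25 and -0.71. PSMC4 also lost it without E1, E2 or E3. PSMC6 was the ATPase that was not called, at 5.86, 6.18, 6.60 and 6.00 at baseline and 6.44, 6.30, 6.48 and 6.41 on day 28, with a change of 0.25 and 3 of 4 horses higher.

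Among the 13 PSMD genes, 8 were called lower. PSMD8, a lid subunit, was at 7.63, 8.19, 7.80 and 7.89 at baseline and at 5.57, 5.67, 5.71 and 6.27 on day 28, a change of -2.07 (SE 0.178, adjusted p = 0.000181 by limma). PSMD13, also of the lid, was at 7.06, 7.32, 7.77 and 7.11 at baseline and at 5.13, 5.27, 5.34 and 5.60 on day 28, a change of -1.98 (SE 0.18, adjusted p = 0.000219 by limma). The values of both genes on day 28 lay below every baseline value. PSMD2, a large scaffold subunit of the base, fell by 1.94, and the lid subunits PSMD3, PSMD7, PSMD12 and PSMD11 had changes of -1.53, -1.43, -1.31 and -1.02. PSMD7 and PSMD11 lost the call after cyclic loess, with -0.23 and -0.14, and PSMD11 also without E2 or E3. PSMD1, the other large scaffold subunit, fell by 1.09 and had a change of 0.036 after cyclic loess. Its call was also lost after quantile normalization.

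The 5 PSMD genes that did not pass were PSMD5, PSMD6, PSMD9, PSMD10 and PSMD14. PSMD5, PSMD9 and PSMD10 are chaperones that help assemble the base of the 19S particle and leave it, and this grouping was seen after their values were known. Their changes were -0.13, -0.09 and 0.04, and each of them had overlapping groups. PSMD14, the deubiquitinase of the lid, had a change of -0.55 and an adjusted p of 0.0528 by limma, just outside the threshold. PSMD6, a lid subunit, was at 5.77, 6.01, 6.65 and 5.91 at baseline and at 5.66, 5.57, 5.38 and 5.41 on day 28, a change of -0.58 (SE 0.207, adjusted p = 0.058 by limma) with no overlap of the groups.

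The activators and the inhibitor of the core were all called lower, 4 of 4, with a median of -1.66. PSME1 and PSME2 form the PA28 cap that opens the core without ATP. PSME1 was at 7.94, 8.29, 8.04 and 8.11 at baseline and at 6.39, 5.65, 5.83 and 5.92 on day 28, a change of -2.15 (SE 0.197, adjusted p = 0.000225 by limma). PSME2 was at 5.83, 6.20, 6.18 and 6.75 at baseline and at 4.63, 5.15, 5.50 and 4.96 on day 28, a change of -1.18 (SE 0.2, adjusted p = 0.00276 by limma). Both partners of the cap fell in every horse. PSME4, the large PA200 activator, had a change of -1.45 and lost the call after cyclic loess, with -0.26. PSMF1, the inhibitor PI31, was at 6.91, 7.52, 7.46 and 6.96 at baseline and at 5.70, 4.97, 5.43 and 5.28 on day 28, a change of -1.87 (SE 0.227, adjusted p = 0.000648 by limma).

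The PSMG genes encode chaperones that build the α ring, and 2 of 4 were called lower. PSMG4 was at 8.38, 8.33, 8.06 and 8.37 at baseline and at 5.96, 6.06, 6.00 and 6.10 on day 28, a change of -2.26 (SE 0.14, adjusted p = 7.83e-05 by limma). The changes of the 4 horses lay between -2.42 and -2.06. PSMG3 had a change of -0.62, and its call was lost without E2 or E3 and in 1 model of all 18 arrays. PSMG1 and PSMG2, which act together as a pair, had changes of -0.50 and -0.37 and did not pass, and PSMG1 lay just outside the threshold with an adjusted p of 0.0537 by limma.

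The immunoproteasome subunits had the smallest median change of the classes with the deposited values, -0.42, which became -0.57 after cyclic loess, while that of the core became -0.52. PSMB8 was at 3.65, 3.84, 3.95 and 3.82 at baseline and at 3.24, 3.28, 3.65 and 3.30 on day 28, a change of -0.45 (SE 0.136, adjusted p = 0.0331 by limma), with groups that met at 3.65. This call was lost without any one of the 4 horses, with changes of -0.50 to -0.41, and in 1 model of all 18 arrays (adjusted p = 0.0632 by limma). The values of PSMB8 lay below the median of each array, which was 4.06 to 4.22 at baseline and 4.45 to 4.50 on day 28. PSMB9 was at 5.07, 4.89, 5.20 and 5.17 at baseline and at 4.72, 5.20, 5.17 and 5.07 on day 28, a change of -0.04 (SE 0.158, adjusted p = 0.857 by limma). PSMB10 was at 4.88, 5.07, 4.64 and 5.18 at baseline and at 4.03, 4.90, 4.70 and 4.46 on day 28, a change of -0.42 (SE 0.194, adjusted p = 0.123 by limma). The values of PSMB9 and PSMB10 overlapped between the times, and in each of them 3 of 4 horses were lower.

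Each immunoproteasome subunit was set against the constitutive subunit whose place it takes. The change of PSMB8 exceeded that of PSMB5 by 1.06 ± 0.58 (SD, n = 4, exact sign-flip permutation p = 0.12), with 0.59, 1.78, 1.28 and 0.59 in E1 to E4. The change of PSMB9 exceeded that of PSMB6 by 2.86 ± 0.626 (SD, n = 4, exact permutation p = 0.12), with 2.16, 3.53, 2.52 and 3.21. The change of PSMB10 exceeded that of PSMB7 by 1.06 ± 0.627 (SD, n = 4, exact permutation p = 0.12), with 0.69, 1.69, 1.47 and 0.37. The difference was positive in 4 of 4 horses in each pair, 0.12 is the smallest two-sided p that 4 horses allow, and it became 0.188 after adjustment over the 6 pairs tested in the 2 regimens. These differences depended on the scaling of the arrays. For PSMB8 and PSMB5 the mean difference was 0.06 after quantile normalization and -0.48 after cyclic loess, so that its sign changed. For PSMB9 and PSMB6 it was 2.25 and 1.65, and for PSMB10 and PSMB7 it was 0.61 and 0.30.

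**Figure D3:**
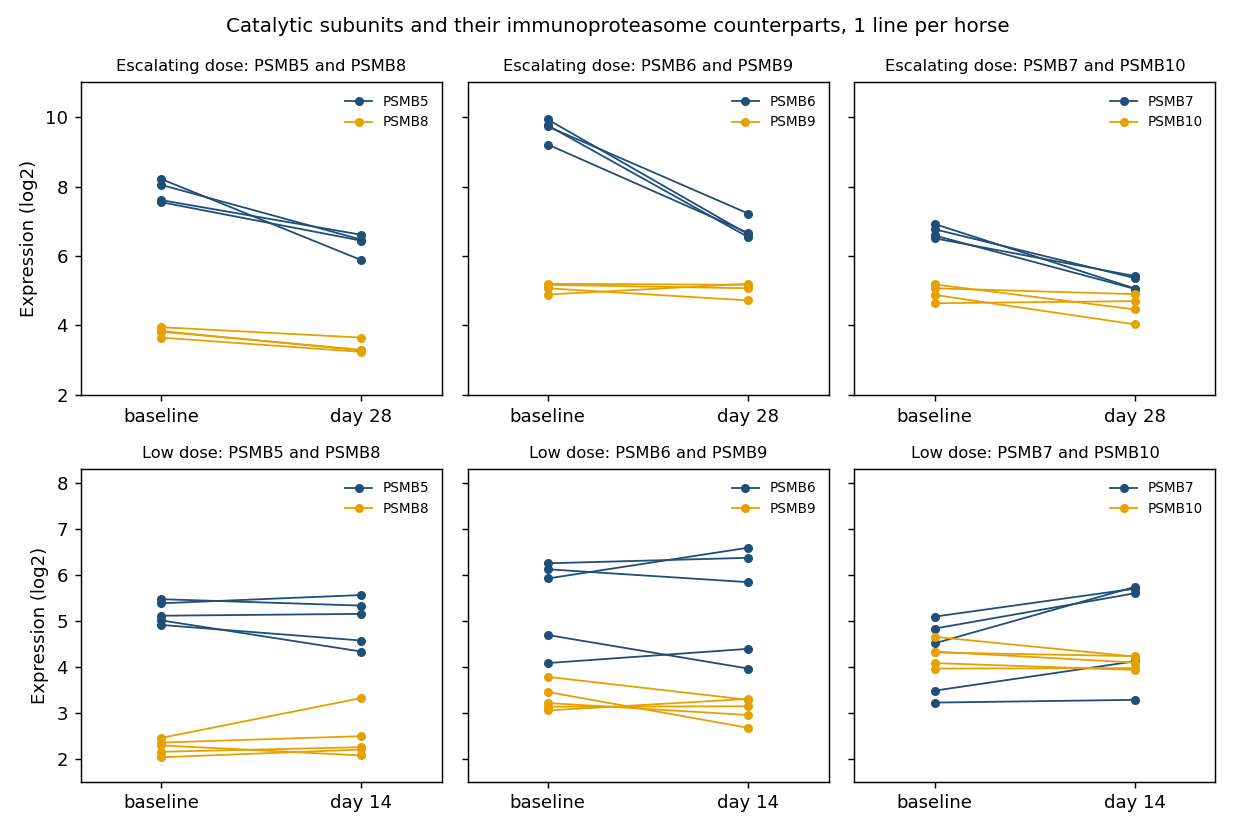
Log2 level at baseline and on clenbuterol, 1 line per horse, of the constitutive subunit (blue) and its immunoproteasome counterpart (yellow), with the escalating dose above (4 horses) and the low dose below (5 horses). At the escalating dose the blue line falls by 0.37 to 3.53 units more than the yellow line of the same horse, and at the low dose PSMB7 rises relative to PSMB10 in all 5 horses.

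By class, the median change of the core was lower than that of the regulatory particle in 3 of 4 horses, by -0.11 in E1, -0.50 in E2 and -0.23 in E4, while E3 had 0.06 (mean -0.20 ± 0.236, SD). The difference of the class medians was -0.26 with all horses and -0.0033 without E2, so the core and the regulatory particle did not differ beyond the spread between horses. The core was below the immunoproteasome in 4 of 4 horses, by -0.63, -1.73, -1.55 and -0.50 (mean -1.10 ± 0.627, SD), and the regulatory particle likewise by -0.52, -1.23, -1.61 and -0.27 (mean -0.91 ± 0.62, SD). No p is given for these class values, since the classes are scores over genes chosen with earlier results known.

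The separation of the immunoproteasome from the core depended on how the arrays were scaled. With the deposited values the difference of class medians was -1.03, after quantile normalization of the arrays it was -0.32, and after cyclic loess it was 0.04. After cyclic loess PSMB8 and PSMB10 were both called lower, with -0.84 and -0.57, and PSMB9 was at -0.01. PSMB6 remained at -1.67, the largest fall of the 45 genes after cyclic loess too, with an adjusted p of 0.00157 by limma.

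**Figure D4:**
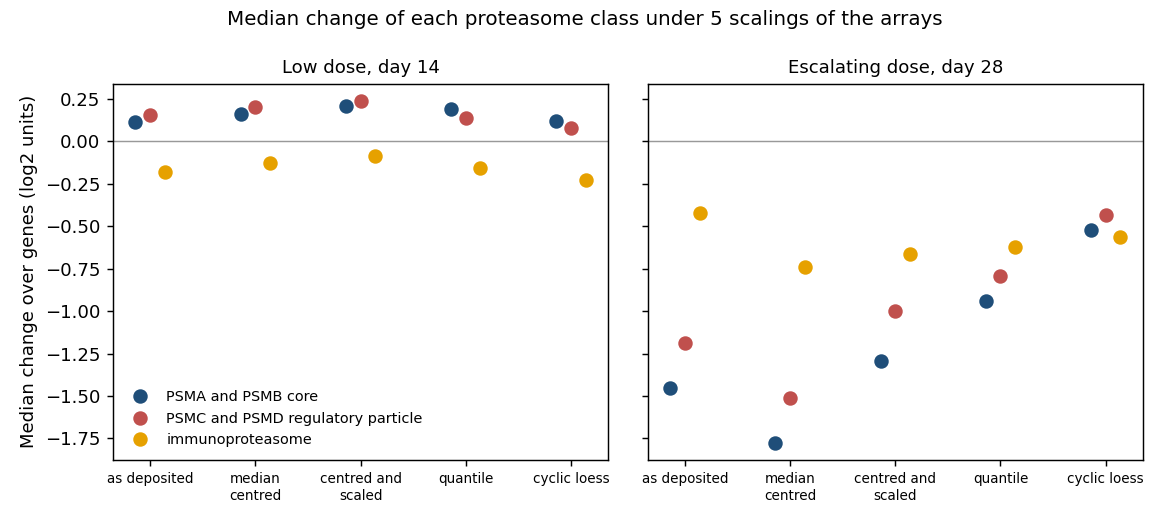
Median change over the genes of the core (blue), the regulatory particle (red) and the immunoproteasome (yellow), in log2 units, with the values as deposited and after 4 other scalings of the arrays. At the escalating dose the yellow point lies 1.03 above the blue point as deposited and 0.04 below it after cyclic loess, and at the low dose all points lie between -0.23 and 0.24.

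The size of the fall followed the signal of the probeset. Across the 45 genes the change at the escalating dose and the baseline level had a Pearson r of -0.84 and a Spearman rho of -0.82, where the baseline value enters both measures and the genes are not independent replicates, and over all single-symbol genes r was -0.70. Among the 10% of all probesets with the highest mean over the arrays of E1 to E4, 65.9% were called lower and 16.1% higher, with a median change of -1.07. These probesets held 15 of the 45 genes, all 15 were called lower, and their median change was -1.55. Of the 30 genes outside them, 17 were called lower and 1 higher, with a median of -0.74. Over all probesets, the brightest 10% included, 20.2% were called lower and 24.5% higher. For all single-symbol genes the shares were 28.4% and 21.9%. The share of only the probesets outside the brightest 10% was not counted. After cyclic loess r over the 45 genes was -0.35, and 22 genes were called lower and 2 higher, PSMA8 with 0.96 and PSMC6 with 1.06. Over all probesets 18.5% were then called lower and 22.1% higher, and of the 16661 single-symbol genes 4158 were lower and 3319 higher. The part of the signal level in the result was not tested.

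**Figure D5:**
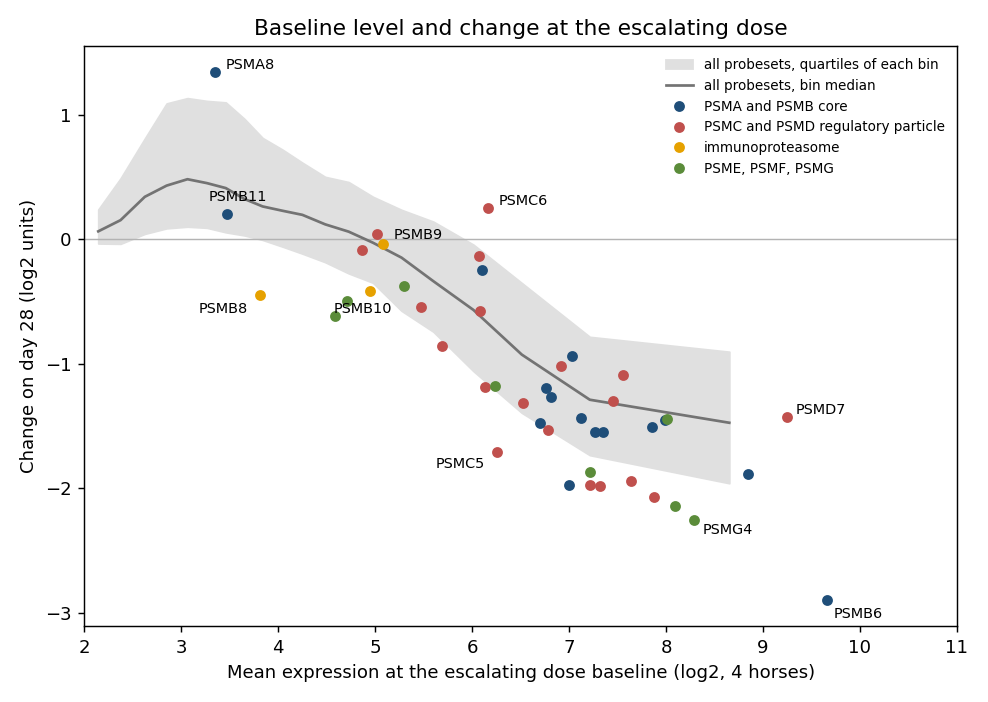
Mean log2 level at the escalating dose baseline and mean change on day 28 of each of the 45 genes, coloured by class, over the median (line) and the lower to upper quartile (band) of the change of all probesets in 20 bins of baseline level. The line falls from 0.48 at a level of 3.07 to -1.48 at a level of 8.65, and of the labelled genes PSMB8, PSMB10, PSMC5 and PSMG4 lie below the band, PSMA8 and PSMC6 above it, and PSMD7 and PSMB6 to the right of its last point.

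Lists of cell type markers also changed at the escalating dose, in differing directions. Over all single-symbol genes 28.4% were called lower and 21.9% higher. After cyclic loess 18.5% of all probesets were called lower and 22.1% higher. Of 13 measured leukocyte markers 7 were called higher and none lower, with a median of 0.59 (5 higher and none lower after cyclic loess), and their mean level was 3.96 to 4.33 on the baseline arrays and 4.67 to 4.77 on the day 28 arrays. Of the leukocyte markers 9 lay below the array median at baseline and 6 on day 28, and PTPRC, which encodes the leukocyte antigen CD45, rose by 0.89. Of 11 endothelial markers 8 were called lower and none higher, before and after cyclic loess, with a mean level of 6.00 to 6.50 at baseline and 4.93 to 5.08 on day 28. Of 11 skeletal muscle markers 4 were called lower and none higher, which became 1 lower and 5 higher after cyclic loess. Their mean level was 10.5 to 10.8 at baseline and 10.2 to 10.3 on day 28. The 36.4% of muscle markers called lower lay near the 28.4% over all single-symbol genes, and nothing is read from that count. Among the 10% of probesets with the highest mean 65.9% were called lower, with a median change of -1.07. The median change of the muscle markers was -0.24, and 0.34 after cyclic loess. The part of the signal level in these marker values was not tested. Of 8 skin epithelium markers 4 were called higher and 1 lower, which became 2 higher and 3 lower after cyclic loess, with a mean level of 3.39 to 4.27 at baseline and 3.90 to 4.20 on day 28. The part of these cells in the proteasome result was not tested.

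Most measured partners of the proteasome were called lower as well. Of 18 measured partners 15 were called lower and 1 higher, with a median of -1.44 over the 18 genes, and 9 were called lower and 2 higher after cyclic loess. For the lists in this paragraph, the background over all single-symbol genes was 28.4% lower and 21.9% higher. Over all probesets it was 18.5% lower and 22.1% higher after cyclic loess. Among the probesets with the highest mean, 65.9% were called lower and 16.1% higher. The part of the signal level in the counts of these lists was not tested. POMP, which matures the β rings, had a change of -2.09, and ZFAND5, a proteasome-binding protein that is induced in muscle atrophy in mouse, had -1.88. UBQLN1, which carries ubiquitinated proteins to the proteasome, had -1.97, and UFD1, a cofactor of the unfoldase VCP, had -2.00, and all of these were called. Of the 3 measured genes of ubiquitin and its activation 2 were called lower, the E1 enzyme UBA1 with -1.86 and the ubiquitin fusion gene RPS27A with -0.93, and UBA6, the other E1 enzyme, had -0.18. Of 7 regulators of proteasome genes 4 were called lower and 1 higher. NFE2L1, the transcription factor that raises proteasome genes when the proteasome is inhibited, had a change of -1.40, DDI2, the protease that activates it, had -1.25, and NFE2L2 had -0.98. Their relative NFE2L3 rose by 0.70.

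Of 15 genes of antigen processing and the interferon response 4 were called lower and 2 higher, with a median of -0.06. Over all single-symbol genes 28.4% were called lower and 21.9% higher, so the list lay near the background and nothing is read from its count. The 4 genes named below had the smallest p of the list by limma at the escalating dose, and 9 of the 15 did not pass. B2M, the light chain of MHC class I, had a change of -0.94, TAP1, which carries the peptides the proteasome makes into the endoplasmic reticulum, had -0.75, and the chaperone CALR had -1.43. IFNG, the cytokine that induces the immunoproteasome, had a mean of 2.84 at baseline and 4.08 on day 28, a rise of 1.24. Both means lay below the array medians of their time. In the bin of all probesets with a median baseline level of 2.85, the median change was 0.43 and the upper quartile 1.09.

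At the low dose none of the 45 genes passed on day 14, and 0% of all probesets did (limma, adjusted p under 0.05). At an unadjusted p under 0.05, 6 of the 45 genes were higher and none lower, against 4.37% higher and 4.35% lower over all probesets. The count of 6 went from 1 to 10 when each horse was left out in turn, with 1 without L1 and 10 without L5, and it was 10 without L4 and L5, where 8.67% of all probesets were higher. Without L4 and L5, 178 probesets passed the adjusted threshold and none of them was one of the 45 genes. The horses then left, L1 to L3, were those in which the skin epithelium markers fell between the biopsies. The mean change was above 0 in 32 of the 45 genes and ranged from -0.28 for PSMB3 to 0.66 for PSMB7, with a median of 0.12. By horse the median over the 45 genes was 0.45 in L1, 0.19 in L2, 0.11 in L3, 0.13 in L4 and -0.17 in L5.

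PSMB7, the trypsin-like subunit, had the smallest p of the 45 genes. In L1 to L5 it was at 4.83, 4.51, 5.09, 3.48 and 3.22 at baseline and at 5.60, 5.74, 5.70, 4.12 and 3.28 on day 14. It was higher in 5 of 5 horses, by 0.66 (SE 0.19, unadjusted p = 0.00921, adjusted p = 0.481 by limma), while the groups overlapped. PSMD12 was at 3.98, 4.72, 4.41, 2.99 and 3.15 at baseline and at 4.91, 4.91, 4.69, 3.59 and 3.79 on day 14, a change of 0.53 (SE 0.164, unadjusted p = 0.0135, adjusted p = 0.491 by limma). PSMD6 was at 4.29, 4.86, 4.99, 3.75 and 3.02 at baseline and at 5.42, 5.29, 5.05, 4.48 and 3.28 on day 14, a change of 0.52 (SE 0.191, unadjusted p = 0.0271, adjusted p = 0.525 by limma). Both were higher in 5 of 5 horses, and PSMD10, with 0.36, was the fourth gene with this pattern.

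None of the genes that fell most at the escalating dose passed at the low dose. PSMB6 was at 6.12, 5.92, 6.25, 4.08 and 4.69 at baseline and at 5.84, 6.59, 6.37, 4.39 and 3.96 on day 14, a change of 0.02 (SE 0.221). PSMG4 was at 7.61, 7.69, 7.75, 5.72 and 4.58 at baseline and at 8.21, 7.73, 7.45, 5.74 and 4.80 on day 14, a change of 0.12 (SE 0.171). In both genes the spread between horses exceeded the change within them, with L4 and L5 lowest at both times. PSME1, PSMD8, PSMA2, PSMC1 and PSMF1 had changes of -0.04, 0.16, 0.05, 0.28 and 0.09, PSME2 had 0.14, and PSMA8 had 0.17 with all 10 of its values between 1.49 and 2.22. PSMD13 had 0.38 (unadjusted p = 0.0422, adjusted p = 0.562 by limma), higher in 4 of 5 horses, and was one of the 6 genes counted at the unadjusted threshold.

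The immunoproteasome subunits did not pass either at the low dose. PSMB8 was at 2.29, 2.15, 2.35, 2.03 and 2.45 at baseline and at 2.07, 2.25, 2.49, 2.20 and 3.32 on day 14, and L5 on day 14 was its highest value. PSMB9 was at 3.45, 3.21, 3.13, 3.78 and 3.05 and then at 2.67, 2.95, 3.14, 3.28 and 3.30, and PSMB10 at 4.08, 4.33, 4.65, 3.96 and 4.31 and then at 3.93, 4.09, 4.22, 3.97 and 4.23. L4 and L5 were not the lowest horses for these genes at both times, unlike for PSMB6. PSMB5 was at 5.47, 5.38, 5.11, 4.91 and 5.01 and then at 5.33, 5.56, 5.15, 4.57 and 4.33.

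The change of PSMB10 was below that of PSMB7 in 5 of 5 horses, by -0.84 ± 0.494 (SD, n = 5, exact permutation p = 0.062, the smallest that 5 horses allow, adjusted p = 0.188), the opposite sign to the escalating dose. The difference was 0.40 ± 0.687 for PSMB8 and PSMB5 (SD, n = 5, exact permutation p = 0.312) and -0.27 ± 0.769 for PSMB9 and PSMB6 (SD, n = 5, exact permutation p = 0.5). The class medians were 0.12 for the core, 0.16 for the regulatory particle and -0.18 for the immunoproteasome, and the core minus the regulatory particle was -0.01, -0.19, -0.17, 0.01 and 0.08 in L1 to L5. The core minus the immunoproteasome was 0.67, 0.42, 0.07, 0.24 and -0.49, higher in 4 of 5 horses, so neither difference exceeded the spread between horses.

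The 2 regimens were compared by a test of the difference between their changes in 1 limma model of all 18 arrays. Horse as a block takes up the scale of each cohort but not a change of scale within it, as on the escalating dose arrays. Dose, sampling day and cohort differed together, so their parts in the difference cannot be told apart. The change at the escalating dose was lower than at the low dose in 33 of the 45 genes and higher in 1, PSMA8, against 16.9% and 19.7% over all probesets. Of the 16661 single-symbol genes 4164 were lower and 3049 higher. The median difference was -1.32. PSMB6 had a difference of -2.92 (SE 0.313, adjusted p = 6.63e-05 by limma), and PSMB7, with a higher value at the low dose and a fall at the escalating dose, had -2.14 (SE 0.262, adjusted p = 0.000141 by limma). PSMD6 and PSMD14, which did not pass in either regimen alone, had differences of -1.10 and -1.0035 that passed. PSMB9 and PSMB10 had differences of 0.21 and -0.24, which did not pass. The number of genes called lower was 14 after cyclic loess and 6 in a model without horse as a block. The shares over all probesets were not counted for these alternatives.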

How the data were processed

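The deposited values were log2 expression values that the authors made with RMA in Affymetrix Expression Console from EquGene-1.0-st arrays, on perfect-match probes only; its version and which arrays were normalized together are not given in the sources used here. Arrays have no read depth, and the number of horses (5 and 4) limits the precision. Probesets were named from the platform annotation, where 16789 of 30559 carry 1 symbol, 343 several and 13427 none; 1 missing value left 30558 probesets in models that include the low dose arrays. Each regimen was fitted alone with limma 3.58.1 in R 4.3.3, with horse as a block, two-sided, and Benjamini-Hochberg adjustment over all probesets. The difference between regimens was fitted on all 18 arrays. The pairs come from the horse named in the titles; same-horse deviations correlated at 0.42 to 0.70 at the low dose and -0.02 to 0.12 at the escalating dose. The pipeline was tested on simulated data. The members and gene lists were chosen with earlier results of these data known. Values are given by sample for the 6 largest called falls (with a tie), genes called higher, PSMB5 to PSMB10, PSME1, PSME2, PSMF1 and the 3 smallest low dose p, and up to 4 genes of each other list; PSMC6 was added after its values were seen. Alternatives were a filter on dim probesets, 4 other scalings, other variance priors, array weights, no block, the methods' t-test, other probeset rules each horse left out, and L4 and L5 left out together. No sequences were printed.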

Additional observations from a re-analysis of the deposited data

Results flagged for a closer look

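In 3 of 68 groups of 4 or 5 arrays tested over 17 of the genes given by sample, a list without PSMC6, 1 horse lay far from the others by Dixon's criterion, which chance alone meets in about 1 group in 20. PSMG4 was at 8.06 in E3 at baseline against 8.33 to 8.38 in the other horses, PSMB8 at 3.65 in E3 on day 28 against 3.24 to 3.30, and PSMD12 at 4.85 in E4 on day 28 against 5.30 to 5.39.

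The change at the escalating dose differed from that at the low dose in 34 genes by limma on all 18 arrays (adjusted p under 0.05). In the core the difference was -1.79 for PSMA1, -2.02 for PSMA2, -2.01 for PSMA3, -1.27 for PSMA4, -1.68 for PSMA6, -1.83 for PSMA7, 1.17 for PSMA8, -1.22 for PSMB1, -1.27 for PSMB3, -1.50 for PSMB4, -1.32 for PSMB5, -2.92 for PSMB6 and -2.14 for PSMB7. In the immunoproteasome it was -0.66 for PSMB8. In the regulatory particle it was -2.25 for PSMC1, -1.67 for PSMC2, -1.20 for PSMC3, -2.05 for PSMC5, -1.55 for PSMD1, -2.03 for PSMD2, -1.62 for PSMD3, -1.10 for PSMD6, -1.40 for PSMD7, -2.23 for PSMD8, -1.84 for PSMD12, -2.36 for PSMD13 and -1.0035 for PSMD14. Among the activators, the inhibitor and the chaperones it was -2.11 for PSME1, -1.32 for PSME2, -1.66 for PSME4, -1.95 for PSMF1, -0.81 for PSMG1, -0.89 for PSMG3 and -2.37 for PSMG4. PSMA8 was the gene with a positive difference, and the scalings under which its call and others were lost are given with the effects of processing.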

How the results depend on the processing

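Of the 32 genes called lower at the escalating dose, 27 were called lower without each horse in turn, 29 after quantile normalization, 20 after cyclic loess and 17 under every alternative. The count ranged from 27 to 32 when 1 horse was left out. It was 24 with the methods' paired t-test of each probeset, 35 without the replicate block and 38 after median centring. Among the alternatives at the escalating dose, a share over all probesets was counted only after cyclic loess, with 18.5% lower and 22.1% higher. For the difference between regimens no such share was counted under an alternative. The paired t-test lost the calls of PSMA1, PSMA4, PSMA6, PSMB5, PSMC4, PSMD1, PSMD11 and PSME2. Quantile normalization lost those of PSMA4, PSMD1 and PSMD11. The median change of the 45 genes was -0.86 after quantile normalization and -0.57 after cyclic loess, and centring each array on its median moved every change by -0.32. The core minus the immunoproteasome was -0.32 after quantile normalization and 0.0441 after cyclic loess, and the core minus the regulatory particle ranged from -0.40 to -0.0033 when 1 horse was left out. At the low dose the core minus the regulatory particle was -0.21 without L4 and L5. After cyclic loess PSMA4 (0.0089) and PSMD1 (0.036) changed sign. Genes called higher at the escalating dose numbered 2 after quantile normalization and after cyclic loess, and 0 in the brighter 50% of probesets, where PSMA8 was not tested. The genes with a lower change at the escalating than at the low dose numbered 14 after cyclic loess and 6 with no replicate block, and those with a higher change 0 in the brighter 50%, after quantile normalization, after centring and scaling and after cyclic loess. The cause of these shifts was not tested, and none of the 45 genes was called at the low dose under any alternative run.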

Other observations

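Proteasome genes whose probesets name a further gene were left out of the counts. At the escalating dose PSMB2, a β subunit without a proteolytic site of the mature core, changed by -0.94 on a probeset shared with LOC100060323, and PSMD4, a ubiquitin receptor of the 19S particle, by -0.65 on one shared with PIP5K1A. PSME3, the PA28γ activator of the nucleus, changed by -2.37 and -1.28 on its probesets, both shared with LOC100061423. All of these were lower in 4 of 4 horses, with adjusted p of 0.000633 to 0.0164 by limma. A further PSMA1 probeset, at a low baseline level of 2.82, went the other way from the one used for the gene, by 0.64 (adjusted p = 0.0262 by limma), and was lower in 0 of 4 horses, so the 2 probesets of PSMA1 disagreed.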
